A study of Homo sapiens with 6 samples.

Results

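The genes that make, clear and sense extracellular adenosine were followed in a human T-cell leukaemia line after transduction with hairpins against 2 T-lineage transcription factors. The set held 10 of the 19699 genes that could be named on the array, namely ENTPD1, ENTPD2, ENTPD4, ENTPD5, ENTPD6, NT5E, ADA, ADK, DPP4 and ADORA2A. The genes were chosen by pathway and with the rise of ENTPD2 on the shGATA3 arrays already known, so the comparison of shGATA3 with control is given for them as a description without a test. RPMI-8402 is an established line from a T-cell acute lymphoblastic leukaemia. The cells received lentivirus for a control short hairpin RNA (shRNA), an shRNA against GATA3 (shGATA3) or an shRNA against TCF7, which encodes TCF1 (shTCF1). All 6 samples carried EGFP from the vector, were sorted for it 48 h after transduction, and gave 100 ng of RNA for 1 array each, 2 arrays in every group. The labels name 1 hairpin per target, so each effect belongs to that hairpin in a single cell line, and RNA of sorted cells is a bulk measure in which fewer cells of a type and less RNA per cell cannot be told apart. The question of these comparisons was how loss of each factor changes gene expression in T-lineage cells.

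ATP released from cells is cut stepwise outside the cell to AMP and then to adenosine. Membrane NTPDases, the proteins of the ENTPD genes, take the first steps, with ENTPD1 (CD39) going through to AMP and ENTPD2 preferring ATP and leaving ADP. NT5E (CD73) turns AMP into adenosine, ADA deaminates adenosine to inosine, ADK phosphorylates it back to AMP inside the cell, and DPP4 (CD26) holds ADA at the cell surface. The receptor ADORA2A raises cyclic AMP and restrains T cells, and inherited loss of ADA blocks lymphocyte development.

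The stretches of 250 bases that precede the RefSeq start of ENTPD2 and of ADA are shown because ENTPD2 differed most between the groups and ADA, the main adenosine-removing enzyme, serves for comparison. They are from build GRCh38.p14, 5′ to 3′ on the strand of the gene, and capitals mark GGGCGG or its reverse complement CCGCCC, the core of a GC box. Neighbouring matches can share a base.
ENTPD2, chr9:137054062-137054311, minus strand: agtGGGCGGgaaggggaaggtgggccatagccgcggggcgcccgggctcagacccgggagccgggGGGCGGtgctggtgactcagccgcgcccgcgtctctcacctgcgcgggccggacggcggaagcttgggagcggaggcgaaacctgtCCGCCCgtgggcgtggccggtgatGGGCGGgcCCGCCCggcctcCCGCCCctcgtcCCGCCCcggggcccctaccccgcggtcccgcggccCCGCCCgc
ADA, chr20:44651700-44651949, minus strand: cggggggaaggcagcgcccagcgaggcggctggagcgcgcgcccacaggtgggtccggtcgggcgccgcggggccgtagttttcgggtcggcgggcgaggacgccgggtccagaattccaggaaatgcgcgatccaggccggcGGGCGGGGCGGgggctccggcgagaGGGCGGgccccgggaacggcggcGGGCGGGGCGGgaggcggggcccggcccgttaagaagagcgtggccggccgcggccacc

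The ENTPD2 window held 8 such matches and the ADA window 5, and 42.6% of all 35116 RefSeq windows of this length held at least 1. Bases G and C made up 80.8% of the ENTPD2 window and 80.0% of the ADA window. That was more than in 97.4% and 96.7% of all windows. Neither window held GATAA or GATAG, the letters of a GATA site, on either strand, which occurred in 20.4% and 15.9% of all windows. Neither held CTTTGAA or CTTTGAT, the letters of a TCF/LEF site, found in 3.8% and 2.26%. For the members, windows on chromosome 8 were left out, and 14 windows of 8 of the 10 genes were used. Of these, 3 held GATAA or GATAG, namely 2 alternative starts of ENTPD1 and 1 of ADK. A further ENTPD1 start held CTTTGAA. These counts describe letters in a short stretch and say nothing of binding.

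The arrays were first checked against their labels. The GATA3 probe was not lower on the arrays labelled shGATA3, with VSN log2 signals (a normalized level, defined under the processing) of 9.46 and 9.55 against 9.54 and 9.56 in control (difference -0.05, adjusted p = 0.795). Throughout, shGATA3 therefore names the 2 arrays that carry that label, and any direction given for it rests on the label alone. The TCF7 probe was lower on the arrays labelled shTCF1, at 12.58 and 12.68 against 13.96 and 13.91 (difference -1.31, adjusted p = 0.00393). All 11 T-lineage markers were well above background on all 6 arrays, and their summed linear signal ran from 98880 to 101300 in control, 146100 to 164300 in shGATA3 and 99510 to 114200 in shTCF1. The 5 B-cell markers summed to 256.1 to 327.2, with CD22 below background on every array, and the 4 myeloid markers with a probe to 265.7 to 299.9. All 6 arrays lay on 1 slide and were scanned together, but both control arrays lay in slide row 2 and the 4 hairpin arrays in row 1. Before normalization the control arrays were also 1.59 and 1.62 times as bright, at the 75th percentile, as the shGATA3 and shTCF1 arrays. Row and brightness therefore cannot be told apart from control against hairpin, whereas shGATA3 and shTCF1 were compared within 1 row. In that row the shTCF1 arrays lay at positions 1 and 2 and the shGATA3 arrays at 3 and 4. Position and hairpin therefore cannot be told apart in that comparison. Both hairpin groups were set against the same control arrays, so these differences are not independent of each other.

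ENTPD2 was the member that differed most between the groups. Its probe (A_33_P3278649) read 5.54 and 5.54 in control, 8.22 and 8.18 where the label was shGATA3, and 6.02 and 6.30 in shTCF1. The 3 groups did not overlap, and both shGATA3 arrays stood far above the other 4. The mean was 2.66 log2 units above control on the arrays labelled shGATA3, which is 6.31-fold, and 2.04 above shTCF1, which is 4.11-fold. These shGATA3 values led to the choice of the gene and carry no test.

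On the shTCF1 arrays, ENTPD2 rose over control by 0.62 ± 0.124 log2 units (SE), or 1.53-fold (adjusted p = 0.0265). The scanner signal itself was 53.8 and 58.4 in control and 54.3 and 61.5 in shTCF1, so this rise appeared with the scaling for the dimmer arrays, while the 252.9 and 254.1 of the shGATA3 arrays exceeded control before any scaling. The shTCF1 call was lost without control replicate 1 (adjusted p = 0.121), without control replicate 2 (0.11), without shTCF1 replicate 2 (0.079) and with no filter on dim probes (0.067), and with normexp background correction the difference was 0.30 (0.034).

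**Figure D1:**
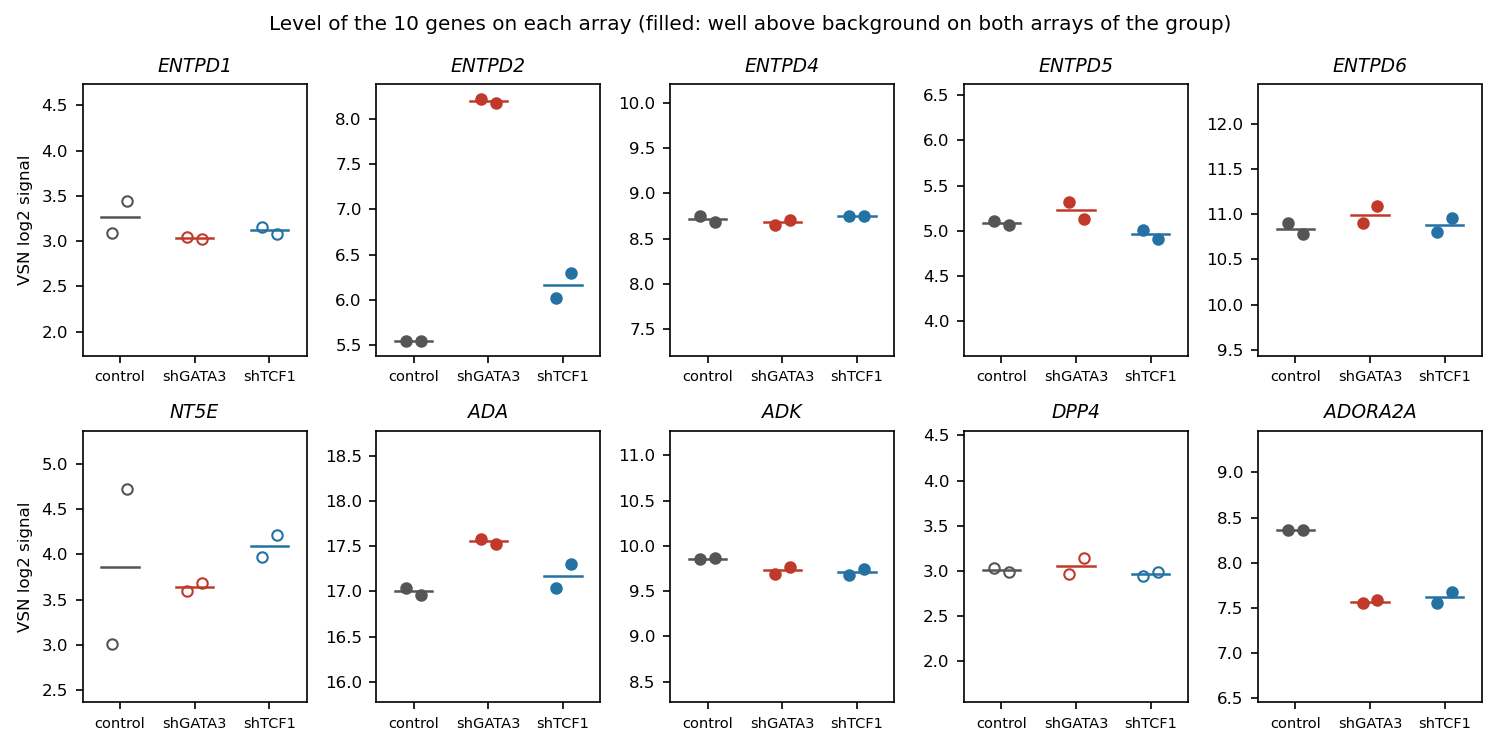
Level of each of the 10 genes on the 6 arrays, as VSN log2 signal of the gene's brightest probe on a panel scale of at least 3 log2 units. Points are arrays, lines are group means, and open points mark groups in which the probe was not well above background on both arrays. ENTPD2 stood at 8.22 and 8.18 in shGATA3 against 5.54 on both control arrays, and ADORA2A was lower on all 4 hairpin arrays.

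The other NTPDases did not share this pattern. ENTPD1, the main NTPDase of regulatory T cells, had 2 probes, and neither was well above background on any array, with signals of 2.91 to 3.44. ENTPD4, an enzyme of the Golgi and lysosomes, read 8.75 and 8.69 in control, 8.66 and 8.71 in shGATA3, and 8.75 and 8.75 in shTCF1. Its 6 arrays thus lay within a narrow band.

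ENTPD5, a nucleotidase of the endoplasmic reticulum, read 5.11 and 5.07 in control, 5.32 and 5.13 in shGATA3, and 5.01 and 4.91 in shTCF1. ENTPD6, found in the Golgi and secreted, read 10.90 and 10.78 in control, 10.90 and 11.09 in shGATA3, and 10.81 and 10.96 in shTCF1. None of the 3 passed the test between shTCF1 and control, with differences of 0.03 for ENTPD4 (95% interval -0.20 to 0.27, adjusted p = 0.828), -0.13 for ENTPD5 (-0.40 to 0.15, adjusted p = 0.451) and 0.04 for ENTPD6 (-0.25 to 0.34, adjusted p = 0.827). Between shGATA3 and shTCF1 the differences were -0.07, 0.27 and 0.11, with adjusted p = 0.711, 0.22 and 0.632. A second ENTPD4 probe gave -0.20 for shTCF1 against control (adjusted p = 0.322). Against control, shGATA3 differed by -0.04, 0.14 and 0.15 for the 3 genes, given without a test.

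NT5E could not be followed. Of its 2 probes, 1 was well above background on control replicate 2 alone, at 4.72, and read 3.01 on the other control array, 3.60 and 3.68 in shGATA3, and 3.97 and 4.22 in shTCF1. The other probe was below background throughout. A change of CD73 transcript was therefore not measurable here, and the same held for DPP4, whose probe read 2.95 to 3.14 and was not well above background on any array.

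Of the enzymes that remove adenosine, ADA was the more variable. It read 17.04 and 16.96 in control, 17.58 and 17.53 on arrays labelled shGATA3, and 17.04 and 17.30 in shTCF1. Both shGATA3 arrays lay above the other 4. The mean was 0.55 log2 units above control in shGATA3, or 1.47-fold, given without a test, and the same difference was 0.29 with quantile normalization and 0.24 with normexp background correction.

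In shTCF1 the ADA difference from control was 0.17 (95% interval -0.13 to 0.47, adjusted p = 0.368), and its sign turned with quantile normalization (-0.16) and with normexp background correction (-0.23). Between shGATA3 and shTCF1 ADA differed by 0.38 (0.08 to 0.68, adjusted p = 0.133), which passed the threshold only with normexp (0.47, adjusted p = 0.0167). The scanner signal was 172300 and 179000 in control, 169000 and 167500 in shGATA3, and 120100 and 132200 in shTCF1, and no spot was marked as saturated. The shGATA3 arrays were thus not brighter than control before scaling.

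ADK, the enzyme that returns adenosine to AMP, varied little. It read 9.86 and 9.86 in control, 9.69 and 9.77 in shGATA3, and 9.68 and 9.74 in shTCF1. The hairpin arrays were all slightly below control, with a difference of -0.15 in shTCF1 (95% interval -0.39 to 0.09, adjusted p = 0.316), and shGATA3 and shTCF1 differed by 0.02 (adjusted p = 0.923).

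The receptor ADORA2A was lower with both hairpins. Its brighter probe read 8.36 and 8.36 in control, 7.55 and 7.58 on arrays labelled shGATA3, and 7.56 and 7.67 in shTCF1. All 4 hairpin arrays lay below both control arrays, and the hairpin groups overlapped each other. ADORA2A fell by 0.74 log2 units in shTCF1 (SE 0.099, 1.68-fold, adjusted p = 0.0104), and the mean of shGATA3 was 0.79 below control, given without a test.

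The hairpin groups differed from each other in ADORA2A by -0.05 (95% interval -0.29 to 0.19, adjusted p = 0.811). A dimmer second probe read 5.89 and 5.58 in control, 4.92 and 4.46 in shGATA3, and 4.99 and 4.83 in shTCF1, and fell by 0.82 in shTCF1 (adjusted p = 0.0379). That call of the second probe was lost with 75th percentile scaling (adjusted p = 0.0503), quantile normalization (0.0587), no filter on dim probes (0.105) and the deposited matrix (0.543), and without any 1 of the control or shTCF1 arrays (0.073 to 0.161), while with normexp the difference was -0.34 (0.022). The scanner signal of the brighter probe was 414.0 and 454.1 in control and between 157.6 and 166.7 on the hairpin arrays. The shTCF1 call of the brighter probe did not hold without control replicate 1 (adjusted p = 0.0655) or without control replicate 2 (0.0567), with differences of -0.75 and -0.74, and with normexp the difference was -0.49 (0.00851).

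**Figure D2:**
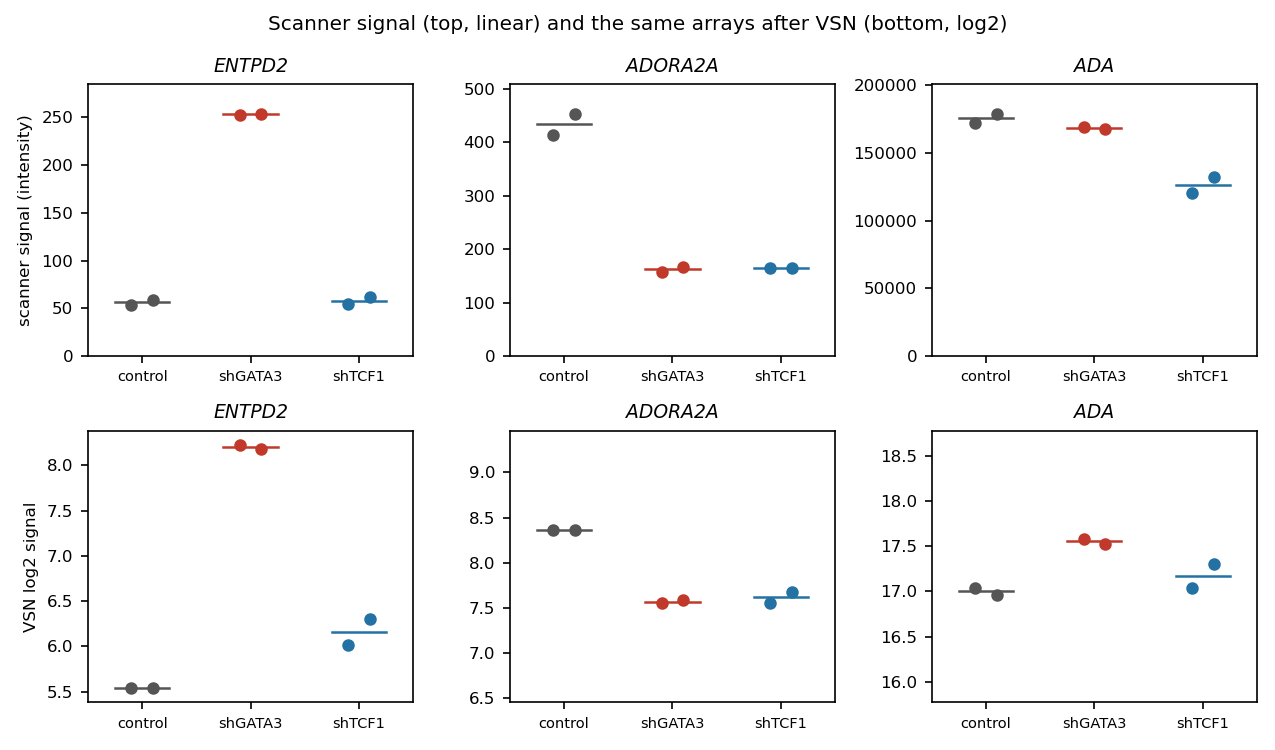
Scanner signal of ENTPD2, ADORA2A and ADA on a linear axis from 0 (top) and the VSN log2 signal of the same probes (bottom), with 1 point per array and a line at the group mean. ENTPD2 scanner signals were near 250 in shGATA3 and overlapped between control and shTCF1, ADORA2A was lower on the hairpin arrays on both scales, and ADA was above control in shGATA3 only after scaling.

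Counted over the set, 7 of the 10 genes were bright enough to test. In shTCF1 against control 1 rose, ENTPD2, and 1 fell, ADORA2A, where 16.2% of all 14491 genes tested passed, 6.26% higher and 9.99% lower. Without either control array 0 of the 7 passed in shTCF1 against control, and without shTCF1 replicate 2 only ADORA2A did. In shGATA3 against shTCF1 1 of the 7 lay past the threshold, ENTPD2, whose shGATA3 level helped choose the set, beside 6.58% of all genes, 3.75% higher and 2.83% lower. With the deposited matrix in place of the scanner values, limma called 0 probes in each comparison. In shGATA3 against control 2 of the 7 lay past the threshold, ENTPD2 upward and ADORA2A downward, beside 6.93% of all genes, 2.79% higher and 4.14% lower, and nothing is read from that count because it helped choose the set. The median difference of the 7 genes was 0.14, 0.03 and 0.11 log2 units in shGATA3 against control, shTCF1 against control and shGATA3 against shTCF1, beside -0.03, -0.05 and 0.00 over all genes. The split of calls depended on the scaling: 42.1% of the probes called in shGATA3 against control and 42.6% in shTCF1 against control were higher after VSN, and 53.6% and 54.8% after scaling to the 75th percentile.

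**Figure D3:**
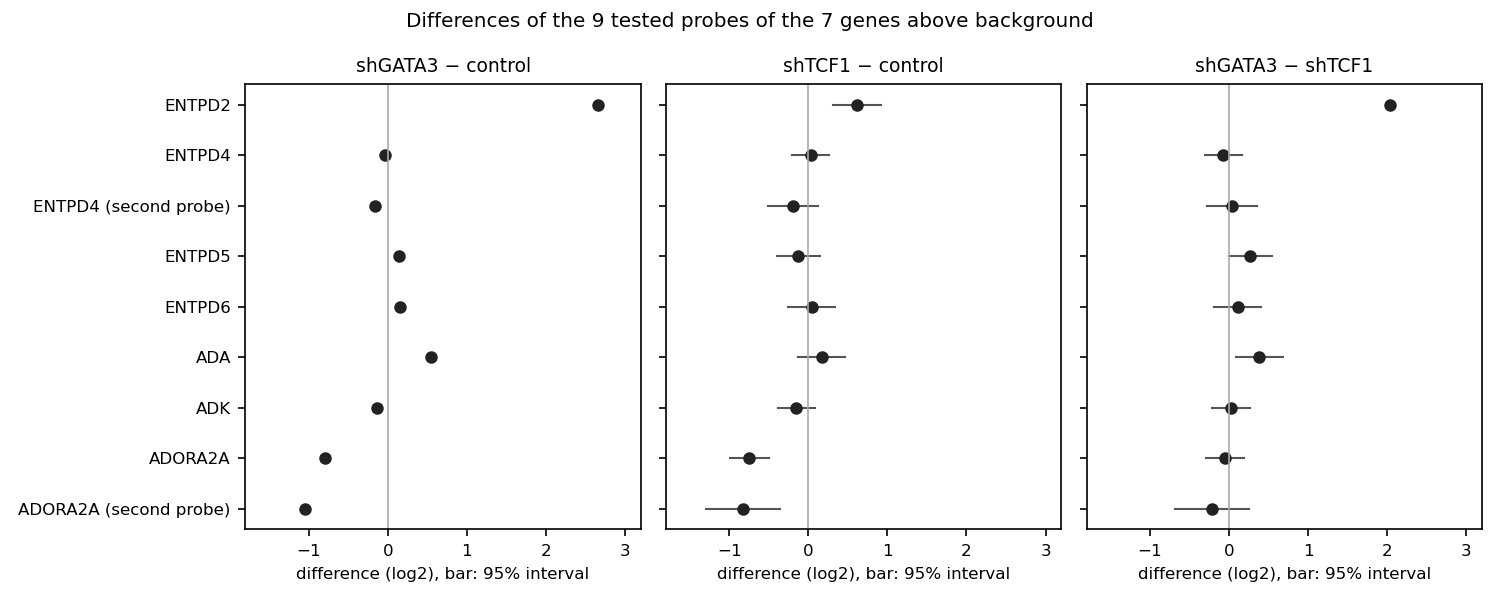
Difference of group means in log2 units for the 9 tested probes of the 7 measurable genes, in 3 comparisons that share arrays. Bars are 95% intervals from limma and are left off where the values helped choose the set. ENTPD2 lay at 2.66, 0.62 and 2.04, ADORA2A at -0.79, -0.74 and -0.05, and the other genes nearer to 0.

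A wider list of 70 genes of purine metabolism, transport and signalling, of which 45 were bright enough to test, placed these values in their pathway. In shGATA3 against control 1 rose and 4 fell, in shTCF1 against control 3 rose and 2 fell, and in shGATA3 against shTCF1 none was higher and 5 were lower. With 1 array left out, 1 to 4, 1 to 5 and 3 to 4 genes passed in these comparisons, the fewest without control replicate 2 in the first and without control replicate 1 in the second. The share past the threshold was 11.1% in each comparison, beside the percentages of all genes given above.

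Of the 18 other receptors for adenosine and nucleotides, 9 were measurable. On the arrays labelled shGATA3, ADORA2B and P2RX5 fell and none rose. P2RX5, an ATP-gated ion channel of lymphoid cells, read 11.64 and 11.48 in control, 10.24 and 10.25 in shGATA3, and 11.76 and 11.71 in shTCF1. It fell by 1.31 log2 units in shGATA3 (SE 0.105, adjusted p = 0.00439) and was 1.49 lower than in shTCF1 (difference -1.49, adjusted p = 0.002), and a second probe gave -1.19 (adjusted p = 0.00967) and -1.08 (0.0104). Both calls held in all 6 fits that left out 1 array.

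ADORA2B, the low-affinity partner of ADORA2A, read 9.04 and 9.07 in control, 8.21 and 7.91 in shGATA3, and 8.67 and 8.68 in shTCF1. It fell by 1.00 in shGATA3 (adjusted p = 0.0135), in 4 of 6 fits with 1 array left out, the exceptions being those without a control array. In shTCF1 the difference from control was -0.39 (adjusted p = 0.0888), and shGATA3 lay below shTCF1 by -0.62 (adjusted p = 0.0482, lost with 75th percentile scaling and in 5 of 6 such fits). No group overlapped another.

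On the shTCF1 arrays 2 receptors rose, P2RX1 and P2RX3, both ATP-gated channels, and none fell. P2RX1 read 7.36 and 7.38 in control, 7.33 and 7.35 in shGATA3, and 8.21 and 8.21 in shTCF1. It rose by 0.84 log2 units (SE 0.0931, adjusted p = 0.00741), a call lost without control replicate 1, and shGATA3 was below shTCF1 by -0.87 (adjusted p = 0.00663). P2RX3 read 5.98 and 5.89 in control, 6.33 and 6.46 in shGATA3, and 6.90 and 6.57 in shTCF1, a rise of 0.80 in shTCF1 (adjusted p = 0.0194, lost without either control array or shTCF1 replicate 1) beside 0.46 in shGATA3 (adjusted p = 0.11).

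Among the 10 measurable deaminases and salvage enzymes, AMPD3 moved in opposite directions with the hairpins. AMPD3, an AMP deaminase, draws AMP toward IMP inside the cell. It read 7.41 and 7.63 in control, 6.52 and 6.18 on arrays labelled shGATA3, and 8.60 and 8.64 in shTCF1. It fell by 1.17 in shGATA3 (SE 0.151, adjusted p = 0.014) and rose by 1.10 in shTCF1 (adjusted p = 0.011). The direct difference of -2.27 between shGATA3 and shTCF1, 4.83-fold, passed in the main comparison (adjusted p = 0.00157) and in all 6 fits with 1 array left out. Against control each call held in 4 of 6, the first lost without control replicate 2 or shGATA3 replicate 2 and the second without control replicate 1 or shTCF1 replicate 2.

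AHCY, which splits S-adenosylhomocysteine to adenosine and homocysteine, read 11.61 and 11.33 in control, 10.68 and 10.51 in shGATA3, and 10.56 and 10.84 in shTCF1. It fell by 0.87 in shGATA3 (adjusted p = 0.0322) and by 0.77 in shTCF1 (adjusted p = 0.0266), each lost when any array of the groups compared was left out. The hairpin groups overlapped and differed by -0.10 (adjusted p = 0.733).

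Of 5 measurable intracellular 5′-nucleotidases, NT5C3B, a cytosolic enzyme, fell by 0.56 in shTCF1 (adjusted p = 0.0277) and NT5M, the mitochondrial enzyme, was lower in shGATA3 than in shTCF1 (difference -0.68, adjusted p = 0.0281). The first call was lost when any array of the groups compared was left out and the second in all 6 fits with 1 array left out. None passed in shGATA3 against control by limma, where 3 had an unadjusted p below 0.05, as did 8257 of all 31134 probes tested. Of 8 nucleoside transporters and ATP release channels, PANX1, the pannexin channel that releases ATP, rose in shGATA3 by 0.51 (adjusted p = 0.0492), a call that held in 0 of 6 such fits. SLC29A1, the main equilibrative nucleoside transporter, differed from control by 0.26 in shGATA3 (adjusted p = 0.309) and -0.12 in shTCF1 (adjusted p = 0.59).

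By brightest probe and limma, 0 of the 4 measurable other ectonucleotidases (ENTPD8, ENPP1, CANT1 and ALPL), 0 of 7 adenylate kinases and 0 of 2 DPP4 homologues passed in any of the 3 comparisons. At an unadjusted p below 0.05, 1 ectonucleotidase passed in each comparison and no DPP4 homologue did. In shTCF1 against control it was ENPP1, which was well above background on both control arrays and on none of the hairpin arrays. ENPP1 met the filter only through control, so its results are not read as a test. Adenylate kinases numbered 0, 1 and 1 in the order given above. Of all 31134 probes tested, 8257, 10909 and 7297 had such a p in that order, so nothing is read from these counts. In shTCF1 against control the brightest probe of AK4 gave -0.69 (adjusted p = 0.38) and a second, dimmer probe gave -0.67 (adjusted p = 0.0349), alike in direction and size, with the second past the threshold. In shGATA3 against shTCF1 the same probes pointed opposite ways, at -0.55 and 0.50, and neither passed (adjusted p = 0.569 and 0.113).

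**Figure D4:**
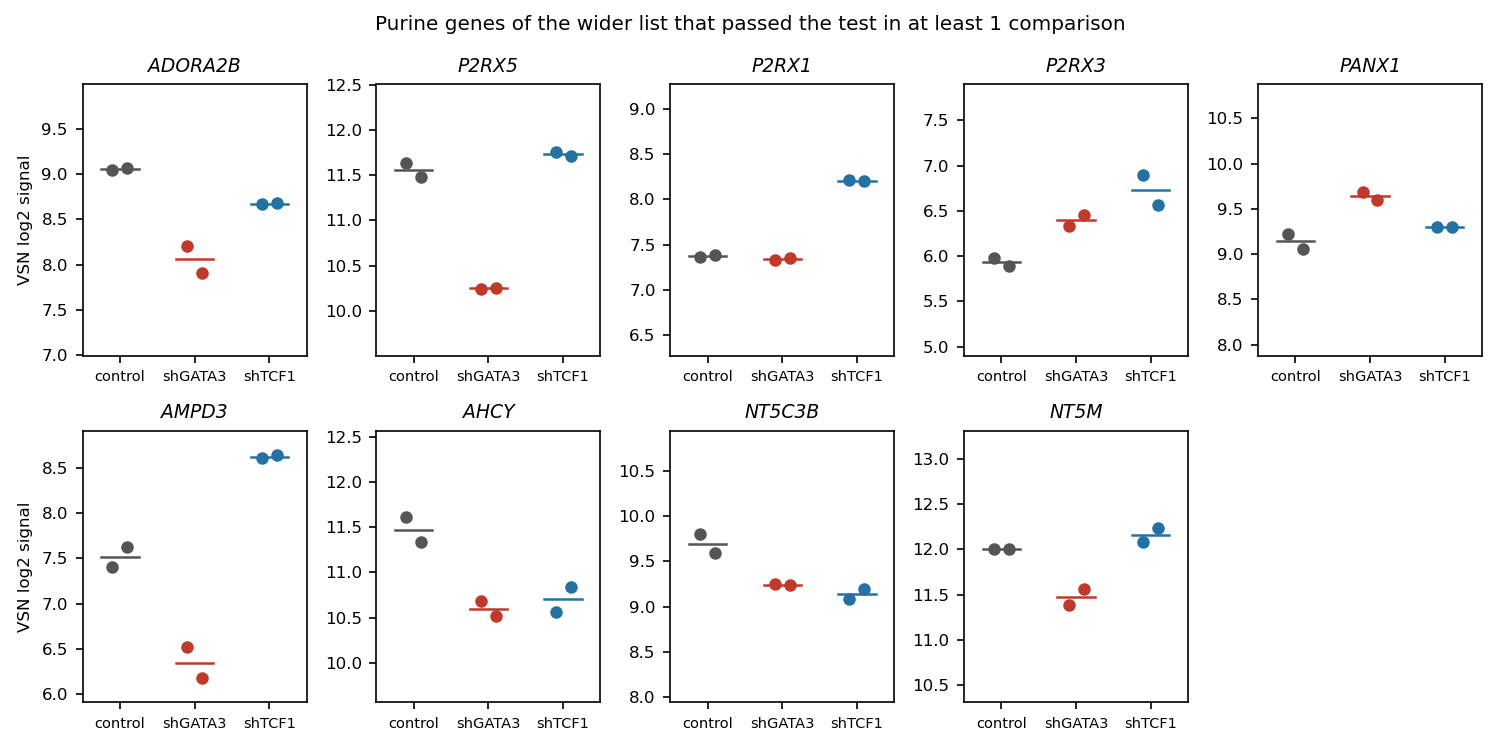
VSN log2 signal of the 9 genes of the wider list that passed the test in at least 1 comparison, with 1 point per array and a line at the group mean. AMPD3 read 6.18 and 6.52 in shGATA3 and 8.60 and 8.64 in shTCF1 with control between them, P2RX5 and ADORA2B were lowest in shGATA3, and P2RX1 was highest in shTCF1.

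ENTPD2 lies on chromosome 9, and the 5 measured genes on either side of it were read to see whether they moved with it. The adjacent gene NPDC1, which encodes a neural proliferation control protein, read 6.77 and 6.89 in control, 7.62 and 7.68 on arrays labelled shGATA3, and 7.09 and 6.96 in shTCF1. NPDC1 rose by 0.82 log2 units in shGATA3 (adjusted p = 0.0151), was 0.63 above shTCF1 (adjusted p = 0.0291), and differed from control by 0.19 in shTCF1 (adjusted p = 0.265). Apart from UAP1L1, given below without a test, none of the other neighbours passed in shGATA3 against control, where 6.93% of all genes passed. In shTCF1 MAN1B1 fell by 0.52 (adjusted p = 0.0448) and DPP7, a dipeptidyl peptidase of lysosomes, fell by 0.49 (adjusted p = 0.0356), while ENTPD2 rose. Of all genes, 16.2% passed in shTCF1 against control and 6.58% in shGATA3 against shTCF1. Nothing about the locus is read from these few calls. UAP1L1, on the other side of ENTPD2 from NPDC1, was well above background on both shGATA3 arrays, 1 shTCF1 array and neither control array. It read 3.95 and 4.03 in control, 4.78 and 4.52 in shGATA3, and 4.57 and 4.17 in shTCF1. Because it met the filter only through the shGATA3 arrays, no test is given for it.

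**Figure D5:**
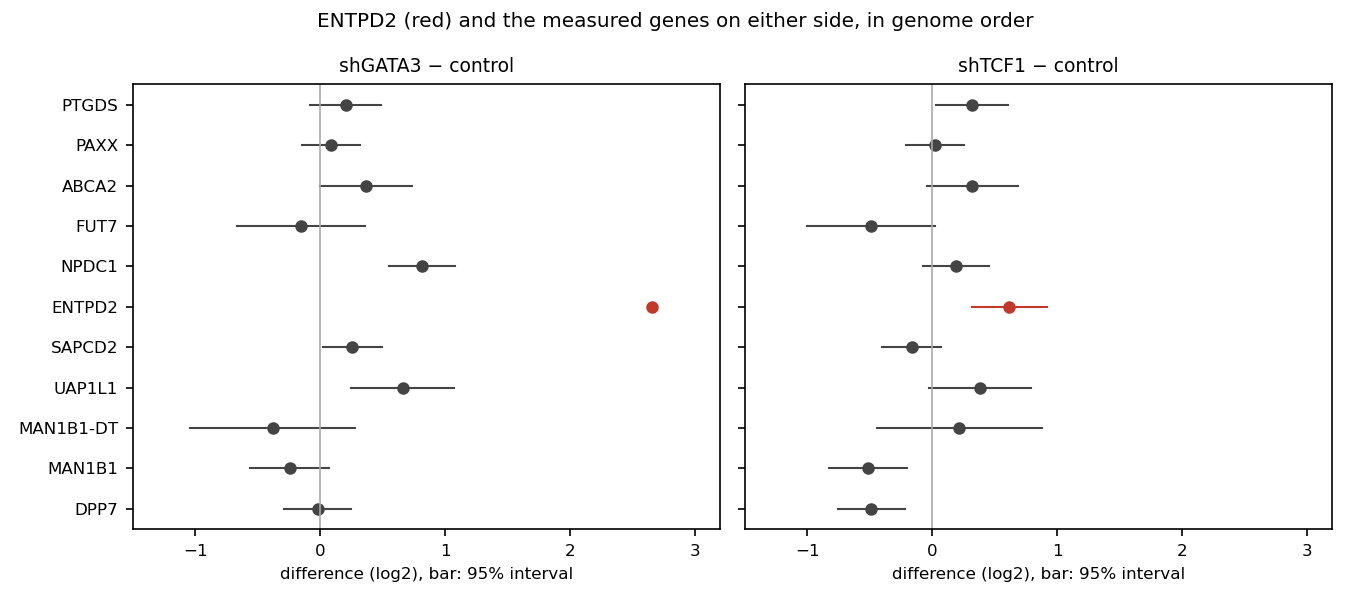
Difference from control in log2 units for ENTPD2 (red) and the 5 measured genes on either side of it, in RefSeq gene order, with 95% intervals from limma except for ENTPD2 in shGATA3, which was chosen on that value. ENTPD2 stood at 2.66 and the adjacent NPDC1 at 0.82 in shGATA3. UAP1L1 was well above background on neither control array, so its bars are not read as a test.

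Among the 1773 genes whose level ranged over at least 1 log2 unit, the profiles most like that of ENTPD2 over the 6 arrays included those of RGPD5 (Pearson r = 0.9974), GCC2 (0.9962), ZNF750 (0.988) and SNTG2 (0.9872). ZNF750, a factor of epidermal differentiation, read 5.51 and 4.87 in control, 8.39 and 8.10 in shGATA3, and 5.60 and 5.89 in shTCF1. Each of these 4 was highest on both shGATA3 arrays. RGPD5 belongs to a family of near-identical copies that share sequence with GCC2, so its probe may read several genes. With 3 groups of 2 arrays the likeness is a description that rests mostly on the shGATA3 group.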

How the data were processed

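Per the labels and the study's methods, RNA of 6 transduced RPMI-8402 samples was hybridised to a custom 1-colour Agilent array. Per the file headers, Agilent Feature Extraction 10.7.1.1 made the intensity values, background-subtracted and not scaled between arrays, and marked spots (0 or 1) as well above background, saturated or outliers. A second deposited file held log2 values, described in the methods as VSN-normalized, with its centring not stated. It was used only as an alternative because the column for control replicate 2 correlated at 0.832 with its scanner values, and the columns' medians ran from 4.936 to 5.11. The column for control replicate 1 correlated best with the scanner values of control replicate 2 (0.996, own 0.985). That for shGATA3 replicate 1 correlated best with shGATA3 replicate 2 (0.994, own 0.986). The column for shGATA3 replicate 2 correlated best with shGATA3 replicate 1 (0.98, own 0.98).

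Control spots and outlier spots were dropped (71 of 57176 probes lost), spots of a probe were averaged, and arrays were normalized with the VSN model (variance stabilizing normalization, an offset and scale per array followed by an arsinh that equals log2 at high signal), written anew in R 4.3.3 with trimming quantile 0.9, 7 iterations and 5 strata. The test took probes that were well above background on both arrays of some group (31134 probes, 14491 genes). Correlations were 0.988 to 0.993 within groups. limma 3.58.1 (two-sided) was fitted once over all 6 arrays, with Benjamini-Hochberg adjustment over the 31134 probes and a threshold of 0.05; SEs, intervals and adjusted p-values are from this fit (residual degrees of freedom 3, prior 2.97). With 2 arrays a group, an exact permutation test cannot go below p = 0.333, and p-values measure the spread between these samples, which may be technical although the study describes 2 independent experiments. The number of arrays limits the precision.

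Probes were named by matching accessions to RefSeq (GRCh38.p14). A gene is its brightest tested probe. The genes named are the 10 members, the targets, list genes past the threshold (with values for up to 3 per comparison and direction, and all receptors, transporters and adenosine-removing enzymes among them), the 5 profiles most like ENTPD2 and 5 neighbours on each side; SLC29A1, UAP1L1, AK4 and the genes of lists with no call were added after their values were seen, and results of some genes under this rule are not reported here. Members and lists were chosen with earlier results of these data known. Promoter windows are from RefSeq; figures were drawn with matplotlib 3.10.9. The fit was tested on simulated data. Alternatives covered the scaling, background correction, filter, trend, replicate block, groups in the fit, outlier spots, the deposited matrix, any tested probe of a gene, and leaving out each array after normalization.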

Additional observations from a re-analysis of the deposited data

How the results depend on the processing

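Each value was recomputed under each alternative and with each array left out.
The ENTPD2 difference of shGATA3 from control was 2.84 with 75th percentile scaling and 2.84 with quantile normalization, 1.79 with normexp, 2.99 with the deposited matrix, and 2.64 to 2.68 with 1 array left out. For shTCF1 against control it was 0.62 without the filter (adjusted p = 0.067), 0.30 with normexp (0.034), 0.85 with the deposited matrix (0.541) and 0.48 to 0.76 with 1 array left out. The deposited matrix gave no call by limma in any comparison (1814, 2652 and 1642 probes at an unadjusted p below 0.05 in shGATA3 against control, shTCF1 against control and shGATA3 against shTCF1), so 0 members and 0 wider-list genes, and reversed 2 values of shGATA3 against control, ENTPD5 (-0.17) and ADK (0.80); its ADA differences from control were 6.06 and 5.87. In that matrix the sign also turned, with no call on either side, for ADK (0.83) and ENTPD4 (-0.21) in shTCF1 against control and for ENTPD4 (0.07) and ADK (-0.03) in shGATA3 against shTCF1. The cause was not tested.
Members called, 2, 2 and 1 in the same order of comparisons, numbered 1 in shTCF1 against control without the filter and 2 in shGATA3 against shTCF1 with normexp. The counts with shGATA3 include ENTPD2, whose shGATA3 level helped choose the set, so nothing is read from them. Wider-list genes called, 5 in each comparison, numbered 11, 11 and 8 with normexp, 1, 2 and 3 without the filter, 10 in shGATA3 against control when every array had to be well above background, 11 and 8 against control with an intensity trend, 3 in shGATA3 against shTCF1 with only those groups fitted, and 1 to 4, 1 to 5 and 3 to 4 with 1 array left out.
Same-numbered replicates did not deviate together after normalization (correlations -0.0398, -0.00982 and 0.0488). The labels give them a shared number only, and these correlations cannot decide whether they were run as pairs. With a replicate block the wider-list count in shGATA3 against control was 3, the other gene counts stayed within 1.5 times, and the ENTPD2 difference of shTCF1 was 0.62 (adjusted p = 0.0442); probes called numbered 1328, 3853 and 1285 against 2130, 5274 and 1925.
Over all alternatives without an array left out, 16 untested member differences moved by more than the spread between replicates, 3 calls were lost and 1 was gained. Slide and scan as a block were not run, since all arrays shared 1 slide and 1 scan. Signals below background leave ENTPD1, NT5E and DPP4 without a comparison.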
